A study of Mus musculus with 49 samples.

Results

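Expression of 42 endothelial genes was followed through 49 mouse RNA-seq libraries. The genes were a named list of vascular, sinusoidal and lymphatic endothelial genes, named for what is known of them in vessels. The list was set with earlier results of these data known, so it was not independent of them. All 42 genes were found among the 55487 genes of the count table. They fell into 8 junction and surface genes (Pecam1, Cdh5, Esam, Icam2, Cldn5, Emcn, Clec14a, Ptprb), 10 receptors and ligands (Kdr, Flt1, Flt4, Tek, Tie1, Eng, Robo4, Aplnr, Ramp2 and the Notch ligand Dll4), 6 transcription factors (Erg, Sox7, Sox17, Sox18, Prox1, Gata4), 8 secreted proteins (Vwf, Egfl7, Mmrn1, Mmrn2, Esm1, Apln, Rspo3, Wnt2), 4 sinusoidal and lymphatic surface genes (Clec4g, Oit3, Lyve1, Pdpn), 4 genes of capillary function (Plvap, Gpihbp1, Nos3, Aqp1) and 2 selectins (Sele, Selp).

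All libraries came from HuHER2 transgenic mice, which carry human HER2 and had a palpable primary mammary tumor when they were treated. Palpation began at 7 months of age. In 3 mice the treatment was PBS, and in 3 it was BP, an iron oxide nanoparticle named in the labels only by that code, as a single intravenous dose of 5 mg Fe. The organs were taken after 7 days according to the design text, whereas a treatment label gives 31 days. Bulk (whole tissue) libraries were made from tumor, lung, liver, spleen, lymph node and bone marrow of every mouse, 18 from BP mice and 18 from PBS mice. The other 13 libraries held nanoparticle-associated cells of the BP mice, obtained by digesting a second piece of the organ and pulling out the cells that held iron with a magnet (pulled cells below). There were 3 such libraries each for liver, spleen, tumor and marrow, 1 for lymph node and none for lung. Every group therefore shared the transgene and the tumor, and no group was tumor free. The promoter that drives the transgene was not given in the sources used here.

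Endothelial cells line blood and lymph vessels, and hold to each other through adhesion proteins such as VE-cadherin (Cdh5), PECAM-1 (Pecam1) and claudin-5 (Cldn5). Their growth and quiescence are set by VEGF receptors, by the angiopoietin receptor TIE2 (Tek) and by Notch signals from DLL4, and their identity is held by ETS and SOX factors. Liver sinusoids are lined by a flat, fenestrated endothelium that takes up particles and macromolecules from blood alongside the resident macrophages, and that expresses Clec4g, Oit3, Lyve1 and the transcription factor Gata4. E-selectin (Sele) and P-selectin (Selp) slow leukocytes on inflamed vessels; Selp is also stored in platelets, and Sele is made only after a stimulus in most vascular beds.

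The promoters of 4 members are shown because the results turn most on the 2 selectins, which rose furthest in nanoparticle-associated liver cells, on Clec4g, a sinusoidal gene with its highest level in liver, and on Prox1, the member that moved against the rest in liver. The sequences are from RefSeq on GRCm38.p6, 300 bases each, from 250 before to 50 after the annotated start, and 23 of the 42 members had such a window, 28 windows in all. Capitals mark AGGAAG or its reverse complement CTTCCT, an extended form of the GGAA core that ETS factors such as ERG recognise. They also mark TGACTCA or TGAGTCA, the site recognised by AP-1. Other GGAA sequences were not counted and are left in lower case. Both strands were searched, and matches may overlap.
Sele, chr1:164047984-164048283, plus strand: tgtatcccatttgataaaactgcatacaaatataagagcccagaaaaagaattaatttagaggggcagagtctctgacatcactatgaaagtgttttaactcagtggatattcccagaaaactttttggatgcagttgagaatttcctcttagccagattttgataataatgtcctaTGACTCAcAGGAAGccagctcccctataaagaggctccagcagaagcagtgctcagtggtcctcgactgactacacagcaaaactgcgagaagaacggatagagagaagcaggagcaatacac
Selp, chr1:164115014-164115313, plus strand: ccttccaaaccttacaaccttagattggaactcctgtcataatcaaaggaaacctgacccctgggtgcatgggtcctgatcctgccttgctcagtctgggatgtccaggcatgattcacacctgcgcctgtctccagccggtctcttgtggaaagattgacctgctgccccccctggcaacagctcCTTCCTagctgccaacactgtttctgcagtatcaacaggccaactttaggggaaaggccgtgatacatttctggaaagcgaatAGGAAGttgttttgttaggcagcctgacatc
Clec4g, chr8:3720602-3720901, minus strand: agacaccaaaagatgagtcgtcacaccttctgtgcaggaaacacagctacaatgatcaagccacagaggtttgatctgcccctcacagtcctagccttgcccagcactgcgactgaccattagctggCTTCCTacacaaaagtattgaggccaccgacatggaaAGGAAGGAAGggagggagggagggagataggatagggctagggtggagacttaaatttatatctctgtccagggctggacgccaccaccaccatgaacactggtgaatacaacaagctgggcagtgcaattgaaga
Prox1, chr1:190170778-190171077, minus strand: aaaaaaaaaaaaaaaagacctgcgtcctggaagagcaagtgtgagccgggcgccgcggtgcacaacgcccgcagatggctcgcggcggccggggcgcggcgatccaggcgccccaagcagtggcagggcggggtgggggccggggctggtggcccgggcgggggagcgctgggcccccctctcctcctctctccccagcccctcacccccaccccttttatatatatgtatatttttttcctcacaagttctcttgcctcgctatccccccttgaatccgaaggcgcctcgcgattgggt
The AGGAAG motif was found in 13 of the 28 windows (46.4%), those of 12 members, against 35.4% of all 32851 windows of the same length. The AP-1 site was found in 1 of the 28 (3.57%), the Sele window, where it stands 1 base before an AGGAAG motif, against 5.20% of all windows. Neither window of Prox1 that RefSeq lists held a match to AGGAAG or to the AP-1 site, though the printed one holds GGAA in a shorter context. A match describes the letters of the window and not the binding of a factor.

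Library totals ran from 9362264 to 19734849 counts (median 13165587), and 17214 to 23241 genes were detected. Levels are in CPM (counts divided by library size and TMM factors within each comparison), so the same library can have a slightly different CPM in 2 comparisons. An observed 0 allows an expected level of up to 3 counts, which were 0.152 to 0.32 CPM (counting error only). Mitochondrial genes took 48.16 to 57.15% of the counts of nanoparticle-associated liver cells and 5.666 to 7.063% of bulk liver of the same mice. A gene was called different at an adjusted p below 0.05 (edgeR's quasi-likelihood test with Benjamini-Hochberg adjustment over all genes tested, two-sided), and every adjusted p below is from that test. Differences are log2 fold changes ± standard error. The 3 libraries of a group came from 3 mice. The bulk tumors of BP mice 1 and 2 stood apart by markers of other tissue (18654 CPM of adipocyte and 3537 CPM of skeletal muscle genes), and counts of members in comparisons with the bulk BP tumors are given with and without the former.

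Where the members were expressed was first asked in bulk organs of the PBS mice, in 1 fit of 17696 genes. Each organ was set against the mean log2 level of the other 5. An organ with a level near 0 lowers that mean, so a difference can be larger than that from the next organ. The lung held the highest level of 32 of the 42 members, where lung was highest for 17.8% of all genes, and in 28 of these the lowest lung exceeded every library of the next organ (9.39% of all genes). In the test 39 members were higher in lung, where 29.2% of all genes were called higher, and 2 were lower, where 21.5% were, with a median difference of 3.51. Claudin-5 stood at 274.7, 570.1 and 596.7 CPM in the 3 lungs and at 0.5696 to 37.92 CPM in the other organs, a difference of 5.61 ± 0.30 (adjusted p = 1.67e-10). Von Willebrand factor (Vwf), the platelet-binding protein of vessel walls, stood at 576.6, 222.3 and 448.4 CPM in lung, at 61.31 to 123 CPM in marrow, at 66.59 to 85.93 CPM in spleen and at 3.188 to 5.054 CPM in liver. Marrow and spleen overlapped for Vwf, while liver and tumor lay below every other organ. Podoplanin (Pdpn), a lymphatic surface protein that alveolar epithelium also makes, had the largest lung difference, 6.78 ± 0.47, and the summed CPM of 8 lung epithelial markers was 47134 to 55086 in lung and 16.4 to 272 elsewhere. In bulk tissue, fewer cells of a type and less RNA per cell cannot be told apart.

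**Figure D1:**
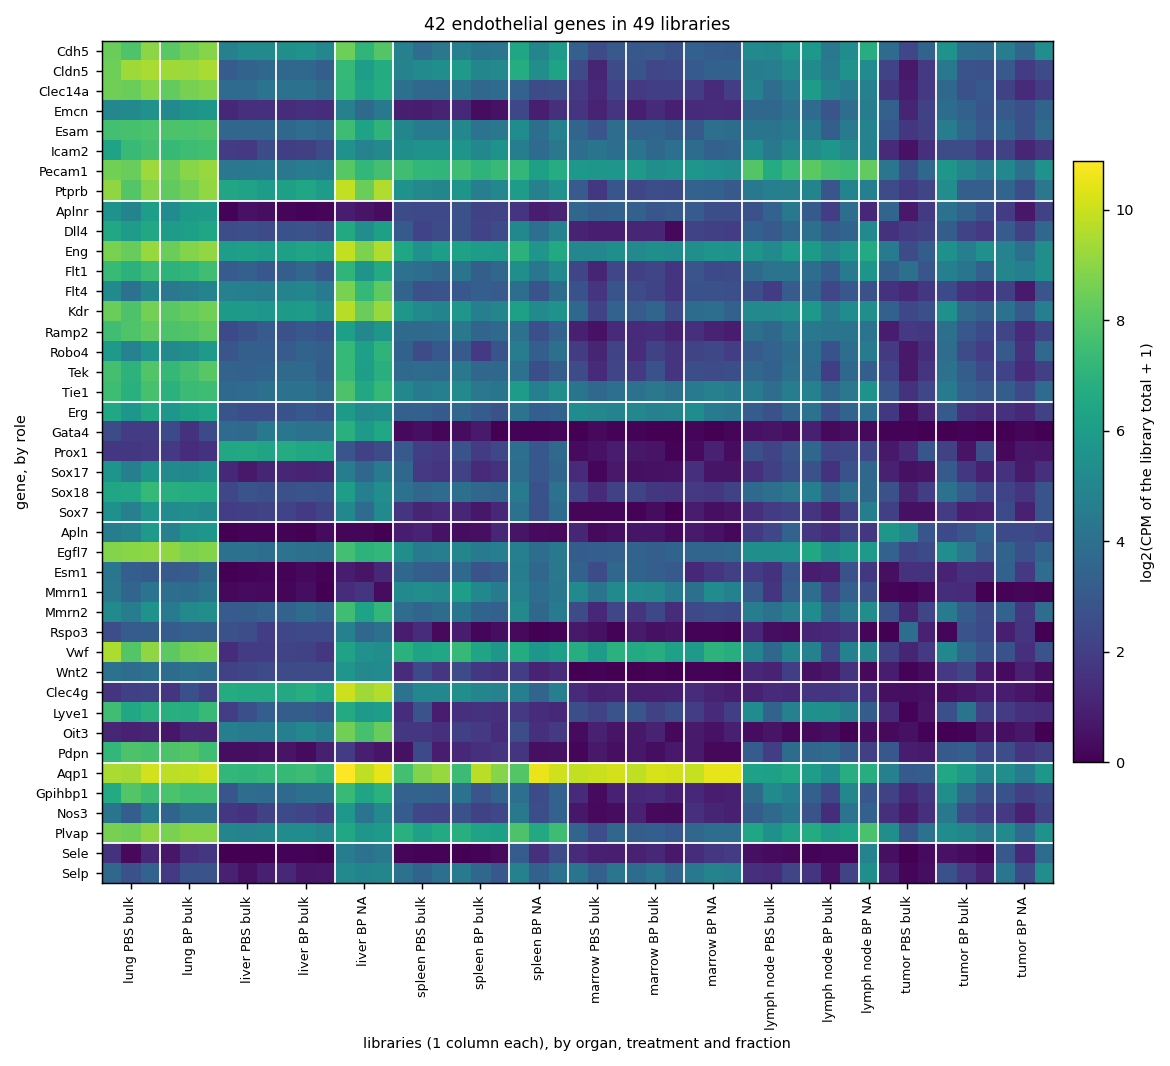
Level of the 42 endothelial genes (rows, ordered by role) in the 49 libraries (columns, grouped by organ, treatment and fraction; NA, nanoparticle-associated), as log2 of the library-total CPM + 1. Colours compare libraries within a row, since CPM are not corrected for gene length. The lung columns are bright for most rows, the liver columns stand out for Clec4g, Oit3, Gata4 and Prox1, and the 3 nanoparticle-associated liver columns are brighter than bulk liver in most rows and darker for Prox1.

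Liver had another set. It held the highest level of 6 members (Clec4g, Oit3, Gata4, Prox1, Flt4 and Rspo3; 23.1% of all genes), and for all but Rspo3 the lowest liver exceeded every library of the next organ (15.1% of all genes). Clec4g, a lectin of liver sinusoids, stood at 191.7, 170.6 and 162.2 CPM in liver and at 11.73, 29.18 and 30.05 CPM in spleen, the next organ. Its mean in liver was 7.39 times that in spleen, and it was 6.51 ± 0.22 above the mean log2 level of the other 5 organs (adjusted p = 4.94e-14). Gata4, the factor of the sinusoidal programme, was 6.69 ± 0.31 higher (27.2 ± 6.56 CPM, SD, n = 3), and Oit3 was 6.13 ± 0.27 higher (41.2 ± 4.74 CPM). Prox1, which defines lymphatic endothelium but is also a hepatocyte factor, was at 161 ± 18 CPM in liver and at 4.49 CPM on average in lymph node, a tissue rich in lymphatic vessels. Flt4, the VEGF-C receptor, was at 43.7 ± 4.78 CPM in liver and 23.1 ± 7.39 CPM in lung. In all, 17 members were higher in liver (29% of all genes were) and 10 lower (35.3%; 64.3% in either direction). Sele had 0 counts in all 3 PBS livers, and Vwf (-3.23 ± 0.37), Mmrn1 (-4.04 ± 0.46) and Apln (-5.46 ± 1.06) were among the lower genes. The summed hepatocyte markers were 156085 to 217874 CPM in liver and 224 to 1292 elsewhere. Their part in the Prox1 level was not tested.

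In marrow 7 members were higher (27.5% of all genes were) and 30 lower (30.4%), with a median of -2.11. The higher ones were Mmrn1 (3.55 ± 0.24), Sele (3.13 ± 0.63), Aqp1 (2.88 ± 0.29), Selp (2.54 ± 0.34), Vwf (2.12 ± 0.24), Erg (2.01 ± 0.26) and Esm1 (2.01 ± 0.39). Of these, marrow held the highest mean level only of Aqp1, Sele and Selp. For Sele (1.18 times lung) and Selp (1.34 times spleen) its libraries overlapped with those of the next organ. Lung was highest for Vwf, Erg and Esm1, and spleen for Mmrn1. Multimerin 1 (Mmrn1), Vwf and Selp are also stored in platelets and made by megakaryocytes, and the water channel Aqp1 is abundant in red cells. The summed markers of megakaryocytes were 445 to 1226 CPM in marrow and 838 to 1278 in spleen, and the erythroid sum was 150946 to 170457 CPM in marrow. Their part was not tested. In spleen 10 members were higher (25.3% of genes) and 6 lower (21.8%; 47% in either direction), led by Mmrn1 (3.63 ± 0.24) and Clec4g (3.05 ± 0.23) and by endomucin (Emcn, -2.95 ± 0.50). Leaving out the third mouse took the spleen calls from 16 to 8. In lymph node 10 were higher (20.2%) and 4 lower (13.6%), with endothelial nitric oxide synthase (Nos3, 2.22 ± 0.31), the hyaluronan receptor of lymphatic vessels Lyve1 (1.81 ± 0.42) and Emcn (1.77 ± 0.34) furthest up, and the calls fell from 14 to 7 without the third mouse. The counts without the third mouse have no share of all genes beside them. They do not show whether members lost calls more often than other genes.

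The tumor was the lowest organ for 24 members (16.6% of all genes), with 34 called lower (22.6% of all genes were) and 1 higher (28%; 50.7% in either direction), and a median of -2.80. Pecam1 averaged 10.3 CPM in the PBS tumors, 130 ± 0.38 in spleen and 367 ± 130 in lung. The exception was Apln, the peptide ligand of the apelin receptor that sprouting endothelium and hypoxic cells release, at 45.8, 27.7 and 5.90 CPM in the 3 PBS tumors (4.22 ± 0.46, adjusted p = 9.47e-07). Its mean level in lung was 1.13 times that in tumor, and the libraries of both organs overlapped. Of the 71 other genes of endothelial identity and of the VEGF, angiopoietin, Notch, BMP and sinusoidal pathways, 53 were higher and 6 lower in lung, against 13 higher and 44 lower in tumor. Corrected for gene length, the most abundant members per kilobase were Cldn5 in lung (339 CPM per kb), Aqp1 in marrow, spleen and liver (395, 136 and 98.6) and Plvap, the diaphragm protein of fenestrated capillaries, in lymph node and tumor (30.2 and 9.15).

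Nanoparticle-associated cells were then compared with bulk tissue of the same organ and the same BP mice. The pulled cells had been digested and sorted and the bulk tissue had not, so the effect of digestion and the effect of selecting iron-holding cells cannot be told apart in any of these comparisons.

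In liver, nearly all endothelial genes were higher in the nanoparticle-associated cells, and by similar folds. Of the 42 members 38 passed the filter on low counts, and all 38 were called, 37 higher and 1 lower, where 74.8% of all 13247 genes were called (37.3% higher, 37.5% lower). The filter can be passed through the libraries of 1 group alone. Sele and Selp, with 2 and 32 counts over the bulk livers, passed through their counts in the pulled cells, so their place among the higher members is partly set by the filter. The median difference of the members was 4.07, with quartiles at 3.83 and 4.21, against 0.01 over all genes. Leaving out any 1 library kept 37 to 40 members called. That range has no share of all genes beside it, so it does not show whether members kept calls more often than other genes. Summed over the members, the 3 nanoparticle-associated libraries held 9746, 7785 and 10553 CPM and bulk liver of the same mice 664, 710 and 612 CPM.

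All 8 junction genes were higher, by 3.41 to 4.31. Pecam1 was at 263, 248.7 and 290.7 CPM in nanoparticle-associated cells and at 14.01, 17.1 and 16.2 CPM in bulk liver, a rise of 4.08 ± 0.16 (adjusted p = 1.66e-07). VE-cadherin rose by 3.41 ± 0.22, from 30.6, 34.3 and 24.9 CPM to 355.8, 233 and 363.2 CPM. The phosphatase Ptprb, which holds TIE2 signalling in check, reached 943, 585.8 and 1090 CPM against 52.7, 61.4 and 48.2 CPM. In each of these genes the lowest pulled library lay several-fold above the highest bulk library.

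The 9 receptors and ligands that were tested rose by 3.89 to 4.54, with a median of 4.19. VEGF receptor 2 (Kdr) was at 836.5, 563.3 and 853.7 CPM in nanoparticle-associated cells and at 43.9, 46.4 and 31.7 CPM in bulk liver, a rise of 4.21 ± 0.25. Flt4 was at 411.8, 249.6 and 411.6 CPM against 20.9, 22.02 and 16.4 CPM. Robo4, a guidance receptor that stabilises vessels, had the largest rise of this group, from 5.65, 7.16 and 6.94 CPM to 155.7, 115.4 and 190.2 CPM (4.54 ± 0.22). Dll4 rose by 4.43 ± 0.20 and endoglin (Eng), a TGF-beta co-receptor, by 4.05 ± 0.22. Mouse 2 was the lowest of the 3 pulled libraries for each of these receptors.

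Of the factors, Sox17 rose by 4.77 ± 0.25 (23.1, 18.4 and 31.0 CPM against 0.923, 0.776 and 0.914 CPM), Sox7 by 3.82 ± 0.33, Erg by 3.71 ± 0.13, Sox18 by 3.67 ± 0.20 and Gata4 by 3.19 ± 0.16. Prox1 went the other way. It was at 6.23, 5.6 and 6.72 CPM in nanoparticle-associated cells and at 74.8, 63.4 and 66.5 CPM in bulk liver, and fell by 3.47 (SE 0.14, adjusted p = 1.71e-07). The summed hepatocyte markers were 11170, 37479 and 23426 CPM in the pulled cells and 65593, 63625 and 79834 CPM in bulk liver, and 7 of the 8 fell.

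Members known from the liver sinusoid moved with the rest. Clec4g was at 1042, 1090 and 1117 CPM in nanoparticle-associated cells and 68.6, 78.3 and 64.0 CPM in bulk liver (3.94 ± 0.18). Oit3 rose by 4.31 ± 0.19 (371.8, 355.8 and 463.2 CPM against 18.6, 22.8 and 18.5 CPM) and Lyve1 by 4.06 ± 0.13 (100, 93.5 and 93.6 CPM against 6.06, 6.03 and 5.06 CPM). Vwf, a marker of larger vessels, rose by 4.89 ± 0.20. Of the WNT pathway ligands made by endothelium near the central vein, Wnt2 rose by 3.92 ± 0.14 and the R-spondin Rspo3 by 2.80 ± 0.17 (25.5, 18.5 and 21.6 CPM against 2.88, 3.22 and 3.29 CPM). Plvap had the smallest rise, 1.74 ± 0.12, from 27.2, 27.3 and 23.5 CPM to 91.8, 86.0 and 81.8 CPM. Pdpn was low in both fractions (2.72, 1.49 and 0.791 CPM against 0.346, 0.179 and 0.731 CPM) and rose by 2.05 ± 0.58 (adjusted p = 0.0103). Esm1, Mmrn1, Aplnr and Apln did not pass the filter, with 3.68 CPM of Mmrn1 in mouse 2 as their highest value.

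The selectins stood apart by size. Sele was at 23.4, 26.1 and 28.2 CPM in nanoparticle-associated cells and at 0.0577, 0.0597 and 0 CPM in bulk liver, which is 873 counts against 2 and a ratio of 640 (95% interval 177 to 5295, counting error only); the fitted rise was 9.06 ± 0.32 (adjusted p = 1.53e-07). Selp was at 34.6, 49.5 and 44.8 CPM against 0.98, 0.418 and 0.487 CPM, a rise of 6.06 ± 0.28. To set these against the general rise, each gene was divided by the geometric mean CPM of the 8 junction genes in the same library. By that measure Sele was 0.147 to 0.208 in pulled cells and 0 to 0.00627 in bulk, Selp 0.217 to 0.394 and 0.0413 to 0.107, Aqp1 11.8 to 12.3 and 11.3 to 12.4, and Plvap 0.481 to 0.685 and 2.51 to 2.95. The ratios of Aqp1 overlapped between fractions, those of both selectins were higher in pulled cells without overlap, and those of Plvap were lower without overlap. The ratios were formed after these values were seen. They restate the larger rise of the selectins and the smaller rise of Plvap in the same libraries, and are not a separate test.

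**Figure D2:**
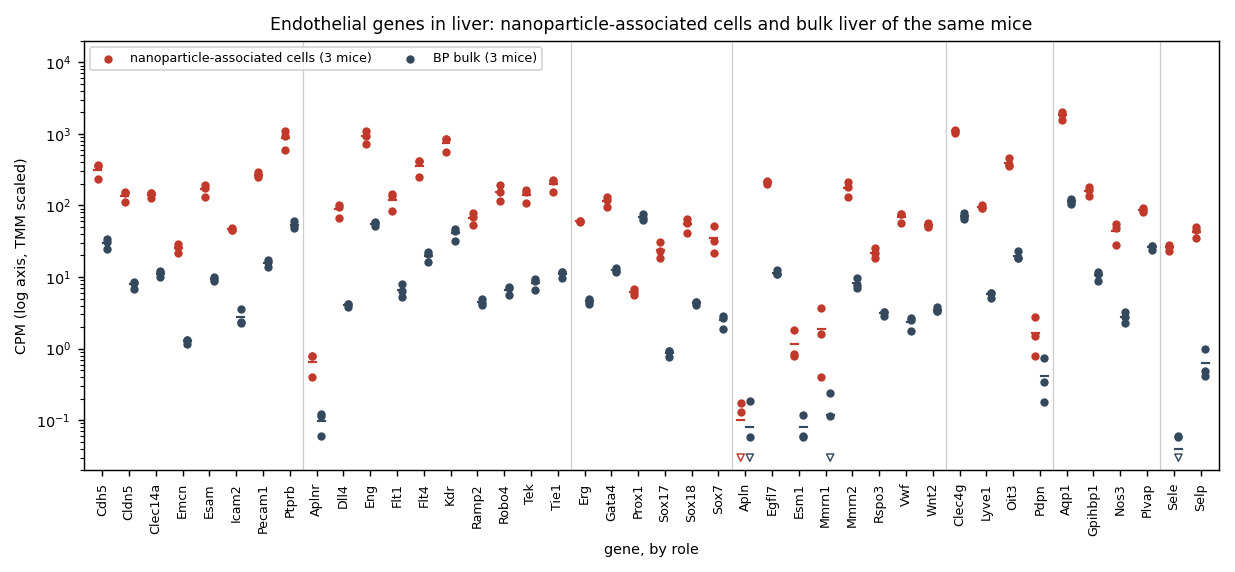
CPM (log axis, TMM scaled) of each endothelial gene in nanoparticle-associated cells (red) and bulk liver (blue) of the 3 BP mice. Each point is 1 library, bars are means, open triangles mark libraries at 0 counts, and vertical lines divide the roles. Red lies above blue without overlap in every gene tested except Prox1, where it lies below (38.6% of all genes lie above and 39.8% below without overlap).

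Markers of other cells moved too. The 5 leukocyte markers summed to 286 to 486 CPM in pulled liver cells and 60.7 to 93.2 CPM in bulk, and all 5 rose. The 5 cholangiocyte markers summed to 204 to 277 and 10.5 to 19.2 CPM, and all 5 rose. Macrophage markers, Kupffer cell genes included, summed to 783 to 2053 and 803 to 1160 CPM, ranges that overlap, with 4 of 11 higher. A list of 16 immediate early and heat shock genes, which are known to rise during tissue digestion and were listed after the selectins had been seen, summed to 10659 to 12954 CPM against 134 to 213 CPM, and all 16 rose. The part of these in the selectin values was not tested. Of the 71 other endothelial genes 65 were tested, 58 rose and 2 fell. Klf4, a flow-responsive factor that is also an immediate early gene, rose by 7.46 (146, 114.3 and 141.1 CPM against 0.980, 0.418 and 0.853 CPM), Bmp2, a BMP ligand of the sinusoid, by 4.57, and the scavenger receptor Stab1 by 4.52. The pair that fell was Vegfa (-1.06 ± 0.16) and Hhex (-0.89 ± 0.27), both of which hepatocytes also express.

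In spleen, the change was smaller and split the members. Of 39 tested, 13 were higher and 3 lower, where 42.2% of all 15026 genes were called (20.2% higher, 22% lower), with a median of 0.65 against -0.04 over all genes. After Sele, the factors Sox7 and Sox17 and the Notch ligand Dll4 changed most, while of the other factors tested Prox1 was called and Erg and Sox18 were not. Sox7 was at 15.9, 6.26 and 13.6 CPM in nanoparticle-associated cells and at 1.09, 0.66 and 1.23 CPM in bulk spleen (3.58 ± 0.44, adjusted p = 0.00157). Dll4 was at 32.4, 17.1 and 29.1 CPM against 4.95, 3.67 and 4.23 CPM (2.61 ± 0.29), and Sox17 rose by 2.37 ± 0.35. Robo4 (1.73 ± 0.42), VE-cadherin (1.65 ± 0.32), Nos3 (1.58 ± 0.44), Flt1 (1.54 ± 0.31), Esm1 (1.25 ± 0.32), Plvap (1.09 ± 0.30), Cldn5 (1.07 ± 0.33) and Tie1 (1.01 ± 0.33) were also higher, Cldn5 and Tie1 with libraries that overlapped.

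Sele rose furthest in spleen as well, from 0, 0.0733 and 0.205 CPM to 7.72, 2.02 and 4.94 CPM (195 counts against 4, ratio 52.3, 20.1 to 194; 5.52 ± 0.83, adjusted p = 0.00299). It passed the filter through its counts in the pulled cells, so its place among the higher members is partly set by the filter. Selp was at 25.8, 10.9 and 17.1 CPM against 19.9, 12.4 and 6.14 CPM, libraries that overlapped (0.49 ± 0.47, adjusted p = 0.438). Prox1, the gene that fell in liver, was at 14.4, 7.88 and 13.2 CPM in pulled spleen cells and at 5.2, 2.93 and 3.62 CPM in bulk, a rise of 1.601 ± 0.32 (adjusted p = 0.00825). The lower members were Aplnr (-1.48 ± 0.39), the adhesion protein Icam2 (-1.02 ± 0.19; 23.01, 15.04 and 20.1 CPM against 42.9, 34.2 and 40.7 CPM) and the lectin-like Clec14a (-0.92 ± 0.28). Pecam1 was at -0.39 ± 0.20, Clec4g at -0.55 ± 0.30 and Lyve1 at 0.11 ± 0.33, none of them called. Apln, Rspo3 and Gata4 did not pass the filter.

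Mouse 2 was the lowest pulled spleen library for every gene given here with its 3 values. Without the pulled library of mouse 3 the count of members called fell from 16 to 8, without bulk mouse 2 to 9 and without bulk mouse 3 to 10. No share of all genes stands beside these counts, so they do not show whether members lost calls more often than other genes. Sele, Sox7, Dll4, Sox17, Cdh5, Flt1, Prox1 and Icam2 kept their calls in each leave-one-out fit. With each mouse as a block, 24 members were called, 19 higher (26.8% of all genes) and 5 lower (27.2%). The members added were Emcn (1.88), Aqp1 (1.01), Mmrn2 (0.95), Kdr (0.703), Erg (0.70) and Ptprb (0.48) above 0, and Mmrn1 (-0.73) and Pecam1 (-0.42) below. Kdr was at 69.5, 39.8 and 49.7 CPM in pulled cells and at 45.1, 26.2 and 26.9 CPM in bulk spleen, higher in each of the 3 mice. The 16 digestion genes summed to 6699 to 15477 CPM against 739 to 828 CPM, all 16 higher, and the fibroblast and reticular cell markers to 35.9 to 116.6 against 197.6 to 295.6 CPM, and their part was not tested. Of the other endothelial genes 68 were tested, 24 were higher and 9 lower, with Apold1 (3.46), Klf4 (3.30) and Procr, the endothelial protein C receptor (2.75), leading.

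In tumor, 37 members were tested and only Sele was called, where 9.04% of all 14615 genes were (5.87% higher, 3.17% lower). Sele was at 6.75, 1.42 and 12.9 CPM in nanoparticle-associated cells and at 0.535, 0.271 and 0.102 CPM in bulk tumor (4.58 ± 0.99, adjusted p = 0.0393). With 333 counts over the pulled cells and 12 over the bulk tumors, Sele passed the filter through the pulled cells. Its place as the member called is therefore partly set by the filter. The call was lost without any 1 of the 6 libraries (3.81 to 5.18, adjusted p = 0.0554 to 0.144) and with each mouse as a block (4.23, adjusted p = 0.0636). Esm1, a proteoglycan of sprouting tip cells, was at 9.43, 2.62 and 13.3 CPM against 1.34, 1.83 and 1.52 CPM, without overlap (2.42 ± 0.62, adjusted p = 0.0554). Selp was at 18.9, 4.41 and 37.6 CPM against 6.87, 2.37 and 0.965 CPM (2.60 ± 0.94, adjusted p = 0.112). Mouse 2 was again the lowest of the pulled libraries in all 3 genes.

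Most other members lay below 0 in tumor, 29 of 37 where 51.5% of all genes did, with a median of -0.72. Without the bulk tumor of mouse 1 the count was 20 of 38 (53.3% of all genes) and the median -0.08. Gpihbp1, the capillary anchor of lipoprotein lipase, was at 5.69, 3.29 and 4.21 CPM in pulled cells and at 50.3, 12.0 and 4.57 CPM in bulk tumor (-2.33 ± 0.84, adjusted p = 0.11; -0.96 ± 0.51 without the bulk tumor of mouse 1). The bulk tumor of mouse 1 held 17729 CPM of adipocyte markers, that of mouse 2 1572 and that of mouse 3 372.9, against 28.9 to 44.4 in the pulled cells. Mammary epithelial markers summed to 10046 to 12506 CPM in pulled cells and 4314 to 7148 CPM in bulk. Their part in the member values was not tested. Relative to the 8 junction genes, Sele was 0.314 to 1.3 in pulled cells and 0.0161 to 0.0307 in bulk, Selp 0.974 to 3.78 and 0.153 to 0.273, and Flt1 3.28 to 5.66 and 1.2 to 1.92. Here too the ratios were formed after the values were seen and are not a separate test. Mmrn1, Clec4g, Oit3, Gata4 and Prox1 did not pass the filter. Of the other endothelial genes 69 were tested, with 6 higher and 6 lower.

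In marrow, 33 members were tested, 3 were higher and 1 lower, where 7.69% of all 13573 genes were called (4.8% higher, 2.9% lower), with a median of 0.35. Ptprb was at 9.28, 9.27 and 7.38 CPM in nanoparticle-associated cells against 3.78, 4.79 and 4.95 CPM (0.94 ± 0.20), Cldn5 rose by 0.89 ± 0.22 and Plvap by 0.73 ± 0.18. Esm1 fell by 1.98 (SE 0.31, adjusted p = 0.0097), from 9.92, 8.65 and 7.88 CPM to 1.35, 2.16 and 3.29 CPM. Sele was at 1.65, 2.25 and 2.79 CPM against 0.924, 1.33 and 0.733 CPM, without overlap but not called (1.13 ± 0.37, adjusted p = 0.105), and Dll4 stood at 1.87 ± 0.51 (adjusted p = 0.062). Leaving out 1 library gave 0 calls (without the pulled library of mouse 2) to 8 (without that of mouse 1), and the block on mouse gave 10, 8 higher (11.7% of all genes) and 2 lower (8.29%), with Dll4, Selp, Eng, Tie1 and Kdr added above 0 and Lyve1 below. The leave-one-out counts have no share of all genes beside them, and calls over all genes in marrow moved widely too, as given in the last section. Of the other endothelial genes 60 were tested, 10 were higher and none lower, led by the Notch ligand Jag2 (2.30).

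**Figure D3:**
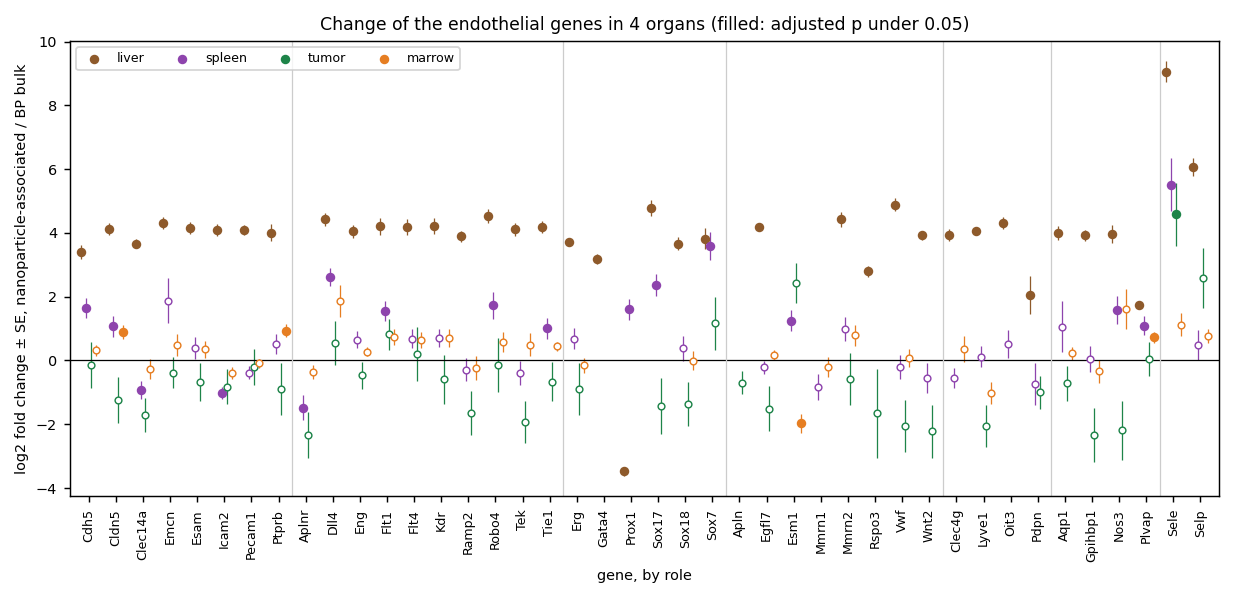
Log2 fold change ± SE of each endothelial gene, nanoparticle-associated cells over bulk tissue of the same organ of the 3 BP mice, in liver, spleen, tumor and marrow. Filled points passed an adjusted p of 0.05, open points did not, and genes below the filter in an organ have no point there. Liver points cluster near the median of 4.07 with Prox1 at -3.47 and the selectins above. In the other organs most points lie closer to 0, more of them above it in spleen and marrow and more below it in tumor. Sele is the highest point in spleen and tumor.

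Whether these changes differed between organs was tested as an interaction over the 24 libraries of the 4 organs (17281 genes), each organ's change against the mean of the other 3. The 4 tests use the same libraries and share 1 estimate of spread per gene. For spleen, tumor and marrow, the mean of the other organs includes liver, where nearly all members rose. A member below that mean had therefore not necessarily fallen in its own organ. In liver 38 members lay above the other organs, where 29.4% of all genes did, and 1 below (24.3%). Vwf had the largest such difference (5.51 ± 0.68) and Plvap the smallest among those called (1.02 ± 0.41). Sox7 (1.47 ± 0.74, adjusted p = 0.101), Gata4 (2.89 ± 1.35, adjusted p = 0.0786) and Apln (0.88 ± 1.06, adjusted p = 0.517) were not called. Prox1 was the member below (-3.33 ± 0.62), and in spleen it was the only member above (3.57 ± 0.62, adjusted p = 0.00061; 9.59% of all genes above).

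These fits also took in members that were low in one of the organs. Of the 38 above in liver, 9 had not passed the low-count filter in at least 1 of the 4 organs. Aplnr, Mmrn1 and Esm1 were low in liver itself (24, 70 and 36 counts over the 3 pulled libraries and 5, 6 and 4 over bulk), and Sox17, Rspo3, Wnt2, Pdpn, Clec4g and Oit3 were low in another organ, Wnt2 with 2 and 1 counts in marrow. Prox1 was low in marrow (17 and 15 counts) and in pulled tumor cells (21 counts). The 29 members that passed in all 4 organs all lay above in liver, where 29.4% of such genes did. They include Sele, which passed in liver, spleen and tumor through its counts in the pulled cells. In the same set 4 lay below in spleen (10.6%), 25 in tumor (16.3%) and 7 in marrow (9.2%).

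In spleen 5 members lay below the other organs (8.63% of genes), namely Selp (-2.63 ± 0.71), Icam2 (-1.94 ± 0.33), Clec4g (-1.90 ± 0.34), Pecam1 (-1.62 ± 0.41) and Clec14a (-1.45 ± 0.36), and the 6 calls became 3 without mouse 2 (8.02% of all genes) and 2 without mouse 3 (3.36%). In tumor 31 members lay below (15.4% of genes) and none above (8.43%), from Nos3 (-4.52 ± 0.78) to Flt1 (-1.33 ± 0.42), 21 did without the bulk tumor of mouse 1 (11.3%), and 16 did without all libraries of mouse 1 (5.98%). Sele (-0.65 ± 0.93) and Selp (0.20 ± 0.71) were not called there. In marrow 8 lay below (7.22% of genes) and none above (7.78%), led by Sele (-5.26 ± 0.86) and Esm1 (-4.38 ± 0.58), with 3, 3 and 2 below when mouse 1, 2 or 3 was left out (3.62, 1.69 and 0.572% of genes). Against bulk marrow itself, Sele was higher in pulled cells without overlap, though not called.

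Lymph node had 1 nanoparticle-associated library (BP mouse 2), so values are given with no test, on library totals. Of the 41 members with at least 10 counts over the 4 libraries, 17 lay above the range of the 3 BP bulk lymph nodes, 14 within and 10 below, against 28.4, 32.2 and 39.5% of 18497 genes. Sele was at 27.9 CPM against 0.0687, 0.107 and 0.141 CPM in the bulk nodes of mice 1, 2 and 3, and the ratio to mouse 2 was 261 (268 counts against 1; 95% interval 46.4 to 1.03e+04, counting error only). Selp was at 41.6 CPM against 2.2, 0.427 and 3.74 CPM (ratio 97.3, 37.7 to 359), and Sox7 at 23.3 CPM against 2.13, 1.07 and 3.45 CPM (21.8, 11.6 to 46.1). Among genes known from lymphatic vessels, Flt4 (ratio 1.37, 0.88 to 2.14) and Mmrn1 (1.31, 0.826 to 2.09) lay within the bulk range, and Prox1 was at 3.95043 CPM, just under the lowest bulk node at 3.95204 CPM. Lyve1 and Pdpn lay below it, Lyve1 at 8.11 CPM against 42.7, 40.1 and 26.1 CPM (0.202, 0.157 to 0.259) and Pdpn at 3.22 CPM against 11, 12.9 and 7.47 CPM (0.249, 0.162 to 0.373).

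**Figure D4:**
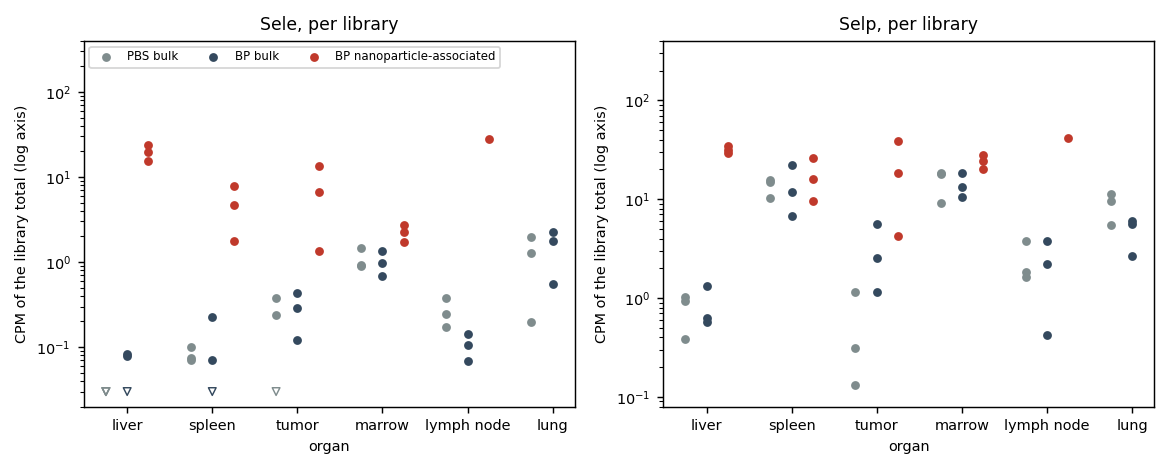
Sele (left) and Selp (right) in each library of 6 organs, as CPM of the library total on a log axis, for PBS bulk, BP bulk and BP nanoparticle-associated cells. Each point is 1 library and open triangles mark 0 counts. In liver, spleen, tumor, marrow and the single lymph node library, every nanoparticle-associated Sele value lies above all bulk libraries of that organ, whereas Selp overlaps with bulk in spleen and tumor.

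A further comparison asked whether BP changed the members in whole organs, BP against PBS bulk tissue. No member was called in any of the 6 organs by edgeR, where 0.0235% of genes were called in liver and 0% in the other 5. Of the 71 other endothelial genes, 63 were tested in liver and 1, a surface gene, was called higher (edgeR adjusted p = 0.0432). It was among the 3 genes called there in all. In liver (36 members tested) the differences ran from -0.15 (Rspo3) to 0.49 (Nos3, ± 0.27), in spleen (40) from -1.16 (Sox17, ± 0.60) to 0.28 (Aqp1), in marrow (32) from -0.66 (Emcn) to 0.65 (Ramp2), in lymph node (39) from -1.30 (Apln, ± 0.55) to 1.03 (Rspo3) and in lung (42) from -0.83 (Selp, ± 0.36) to 0.43 (Sele). Their medians were 0.07, -0.10, -0.04, -0.17 and 0.04 in that order, and no member reached an unadjusted p under 0.05 or a DESeq2 call in these 5 organs, while 3.56, 0.711, 1.32, 3.61 and 0.872% of all genes reached that p. Of the sinusoidal genes that separated the liver fractions, Clec4g was at -0.11 ± 0.12 between treatments in whole liver, Gata4 at 0.07 ± 0.17, Oit3 at 0.16 ± 0.14 and Lyve1 at 0.39 ± 0.30 (adjusted p = 0.999 for each), and Prox1, the gene that fell in the pulled cells, was at -0.04 ± 0.12. Lyve1 was at 7.94, 7.92 and 6.62 CPM in BP livers and at 3.21, 5.30 and 8.39 CPM in PBS livers, which overlap.

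In tumor 37 members were tested, 35 had a difference above 0 (45.9% of all genes did) and the median was 1.82, against -0.05 over all genes. At an unadjusted p under 0.05 there were 22, where 5.96% of all 14535 genes passed, the lowest adjusted p was 0.797, and DESeq2 called 3 (Vwf, Gpihbp1 and Lyve1; 0.949% of all genes). In 14 members every BP tumor lay above every PBS tumor (5.66% of all genes), and in none below (5.15%). Vwf was at 42.2, 11.4 and 5.19 CPM in BP tumors and at 2.96, 1.15 and 2.51 CPM in PBS tumors (3.15 ± 0.85). Gpihbp1 was at 52.9, 12.6 and 4.67 CPM against 3.25, 1.34 and 2.35 CPM (3.33 ± 0.92), and Eng at 55.9, 23.8 and 37.7 CPM against 20.6, 4.401 and 8.15 CPM (1.82 ± 0.61). Pecam1 was at 68.8, 29.3 and 16.9 CPM against 17.3, 4.91 and 11.5 CPM, where BP mouse 3 lay below PBS mouse 1. Apln was the furthest below 0, at 5.73, 6.21 and 9.08 CPM against 49.97, 31 and 6.42 CPM (-2.05 ± 0.69, adjusted p = 0.797), with overlap.

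The tumor of BP mouse 1 was the highest of the 6 for 31 of the 37 members. No share of all genes stands beside this count, so it does not show whether other genes were highest there as often. It held 18654 CPM of 9 adipocyte markers, against 1656 and 381 in the other BP tumors and 95.8, 8.4 and 283.5 in the PBS tumors, and the tumor of BP mouse 2 held 3537 CPM of skeletal muscle markers. Fibroblast markers summed to 3403, 2066 and 410 CPM in BP and 1954, 75.3 and 198 CPM in PBS tumors. Mitochondrial genes took 19.45, 8.334 and 3.967% of counts in the BP tumors and 4.062, 3.058 and 3.06% in the PBS tumors. The part of the other tissue and of the mitochondrial share in these values was not tested.

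Without the tumor of BP mouse 1 the members' median was 1.17, and 33 of 37 were above 0 (46.1% of all genes). Then 6 passed an unadjusted p under 0.05 (2.74%), 15 lay above every PBS tumor without overlap (9.14%), and DESeq2 called 0 members (0.229% of all genes). Vwf was at 1.93 ± 0.63 in that fit, Gpihbp1 at 1.92 ± 0.65, Lyve1 at 3.996 ± 1.22 and Eng at 1.49 ± 0.66 (adjusted p = 0.999 for each).

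Against the BP change in the other 5 organs (36 bulk libraries, 18613 genes), 22 members were higher in tumor, where 3.21% of all genes were, and none lower (0.854%), with Lyve1 (3.73 ± 0.73), Gpihbp1 (3.18 ± 0.74) and Vwf (3.15 ± 0.63) furthest up. That fit applies 1 spread per gene to all organs, while in the tumor's own 6 libraries no member was called. Without the tumor of BP mouse 1 alone 1 member was called (Lyve1, 3.93; 0.663% of all genes higher), and without mouse number 1, 2 or 3 of both groups 10, 0 and 12 were (1.8, 0.0425 and 2.56%).

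**Figure D5:**
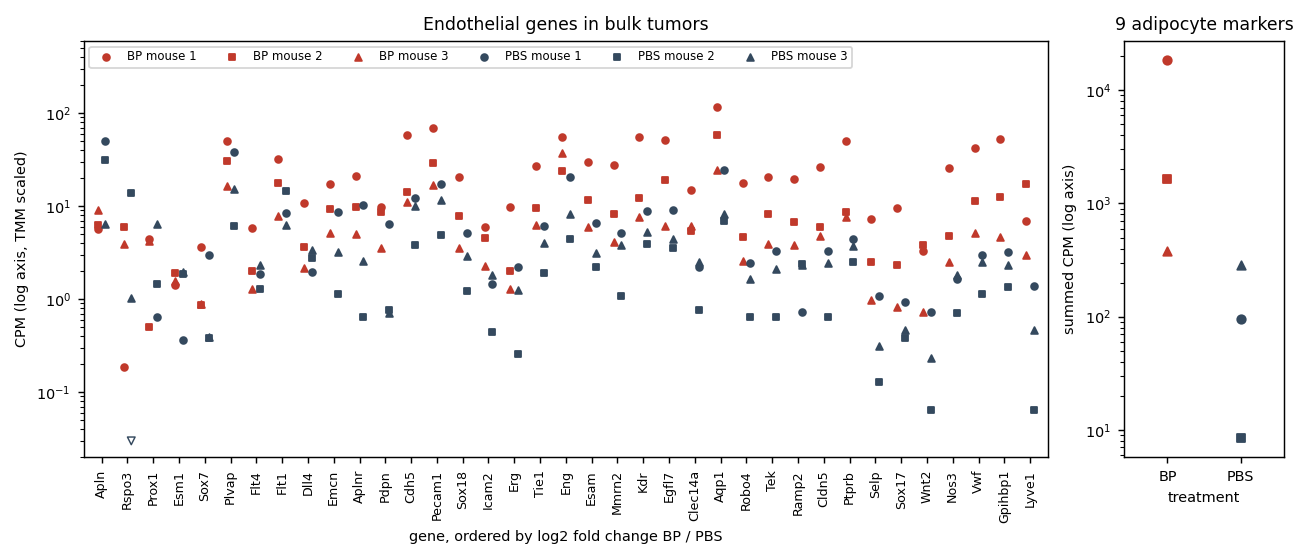
Left, CPM (log axis, TMM scaled) of each tested endothelial gene in the 3 BP and 3 PBS bulk tumors, ordered by log2 fold change, with 1 marker shape per mouse number (mice of the same number in BP and PBS are different animals) and an open triangle at 0 counts. Right, summed CPM of 9 adipocyte markers in the same tumors. BP mouse 1 is the highest tumor for 31 of the 37 genes (the share of all genes was not counted) and for the adipocyte sum (18654 CPM).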

How the data were processed

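RNA-seq of 49 libraries was used. The authors deposited expected counts (estimated counts) per gene, the unit RSEM writes; per the submitters' processing notes the tools were FastQC 0.11.9, cutadapt 3.5, STAR 2.7.9a and RSEM 1.3.1 on mm10. Annotation release, strand setting and tool roles are not given in the sources used here. Reads shared by similar genes were divided by estimation, so 4.64 to 7.92% of values per library were not whole. Gene IDs were matched to symbols through GENCODE M21 (GRCm38); 55227 of 55487 matched.

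Tests used edgeR 4.0.16 under R 4.3.3 on rounded values (TMM, quasi-likelihood F-test, filterByExpr with a minimum count of 10, adjustment over all genes tested), on the 6 libraries of each organ comparison, on the 18 PBS libraries for organs, and as interactions over 24 or 36 libraries. The scripts were tested on simulated counts. DESeq2 1.42.0, other scaling, no filter, no rounding, no mitochondrial genes, a replicate block and leaving out each library were alternatives. Organs of 1 mouse are not independent. Intervals cover counting error only, since reads carry no molecular identifiers named in the sources. Replicates differed beyond sampling noise (chi-square at least 9.17 per degree of freedom), so none was the same library sequenced again. The values cannot tell whether separate libraries came from the same tissue.

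The 42 members, their roles and all lists were chosen with earlier results of these data known. Every member is accounted for. The rule was to give per-library values for members called and for the 3 furthest changes in each direction, which was kept for the members the text turns on, while other called members, most of them in liver and spleen, are given by fold change, range or plot. Of the 71 pathway genes, up to 5 called genes with the largest changes and a mean log2 CPM of at least 2 could be named. The list of 16 digestion genes and the ratio to 8 junction genes were added after the values were seen.

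Nanoparticle-associated and bulk libraries of the same number come from 1 mouse, which pairs them. Over 12 same-numbered pairs the correlation of deviations from the group means was -0.167 to 0.739 (median 0.119), against a median of -0.0307 over 24 other pairs.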

Additional observations from a re-analysis of the deposited data

Results flagged for a closer look

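The change from bulk tissue to nanoparticle-associated cells differed between organs by the interaction test for a number of members, with an adjusted p below 0.05 over 17281 genes. In liver 38 members lay above the mean change of spleen, tumor and marrow (29.4% of all genes) and 1 below (24.3%), with Vwf at 5.51 and Prox1 at -3.33, and 36 to 38 were called when 1 mouse was left out. In spleen 1 lay above, Prox1 at 3.57, and 5 lay below (8.63%), with Selp furthest at -2.63, and 2 to 6 were called with 1 mouse left out. In tumor 31 lay below (15.4%), with Nos3 at -4.52, which became 16 without mouse 1. In marrow 8 lay below (7.22%), with Sele at -5.26, which became 2 or 3 with 1 mouse left out. The change from PBS to BP in bulk tissue differed between the tumor and the other 5 organs for 22 members, all above 0 (3.21% of all genes), with Lyve1 at 3.73, which became 1 without the tumor of BP mouse 1 and 0 without mouse number 2 of both groups. The liver counts with 1 mouse left out have no share of all genes beside them. Each value is a log2 difference of changes. For spleen, tumor and marrow the mean of the other organs includes liver, so a place below is not in itself a fall in that organ. The tests share libraries and 1 spread per gene over organs.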

How the results depend on the processing

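Nanoparticle-associated liver kept 37 to 41 members called under every setting run and no sign turned, with Pdpn the member lost without the pulled library of mouse 1. That range counts members only, with no share of all genes beside it. With a replicate block on mouse the calls against bulk were 10 in marrow (4 without) and 0 in tumor (1 without), and the 24 in spleen are given above; the block changed no count of members by over 1.5 times elsewhere. BP and PBS mice share only a number: over 18 same-numbered pairs the correlation of deviations had a median of 0.0499 (-0.0205 over 36 others), and the block moved Rspo3 in tumor from -0.56 to 0.75. DESeq2 called 10 members in nanoparticle-associated tumor (22.6% of genes) and 3 for BP in tumor, and 5 and 0 without the bulk tumor of BP mouse 1, where Rspo3 turned to 0.036 for BP; without a filter on low counts there were 2 in nanoparticle-associated tumor and 5 for the marrow difference between organs.

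Leaving out 1 library or mouse gave 8 to 19 member calls in nanoparticle-associated spleen, 0 to 5 in tumor and 0 to 8 in marrow. For the differences between organs it gave 2 to 6 in spleen, 2 to 3 in marrow, 16 to 29 in tumor, and 0 to 12 for BP in tumor (1 without the tumor of BP mouse 1). For PBS organs it gave 8 to 14 in spleen and 7 to 19 in lymph node. These ranges count members only, and calls over all genes moved too where given below. They do not show whether members moved more than other genes. In BP against PBS the sign turned without 1 library for liver Ptprb (-0.27 to 0.048) and Rspo3 (-0.41 to 0.077), spleen Aqp1 (-0.49 and -0.13 among -0.49 to 0.70), Clec4g (-0.16 to 0.40), Lyve1 (-1.02 to 0.71) and Oit3 (-0.022 to 0.43), lung Clec4g (-0.10 to 0.59) and tumor Rspo3 (-1.26 to 2.71, with 0.030), none of them called. The cause was not tested.

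Over all genes, calls moved from 1321 to 3303 (DESeq2), 625 (block) and 20 to 1935 (1 library left out) in nanoparticle-associated tumor, from 1044 to 2719 (block) and 289 to 1899 in marrow, from 2592 to 1699 (no filter) for the marrow difference, and from 756 to 1501 (DESeq2) or 157 (without the tumor of BP mouse 1) for BP in tumor. DESeq2 called 37 genes for BP in liver (3 in edgeR, 49 without a filter), 138 in tumor, 4 in marrow (27 without a filter) and 11 in lymph node, where edgeR called 0. Without a filter the median of all genes in nanoparticle-associated liver moved by -0.124.

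With 3 mice a group and 2 and 4 counts of Sele over the bulk livers and spleens, the size of its rise rests on few counts, and its interval leaves out the spread between mice.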
